A study of Menidia menidia with 24 samples.

Results

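Transcripts were sought whose response to rearing in low-oxygen, high-CO2 water ran in opposite directions in offspring of control and of exposed parents. RNA had been sequenced from 24 whole wild-type larvae of the Atlantic silverside, a small coastal fish, at 19 days post-fertilization (dpf), with 6 larvae in each of 4 groups. The first letter of a group name is the parental treatment and the second that of the offspring, where C stands for control and H for HypOA, the combination of hypoxia and acidification. The groups were therefore CC, CH, HC and HH. Per the labels, larvae of CC and HC were kept at 100% dissolved oxygen and 600 µatm CO2, larvae of CH and HH at 35% and 2500 µatm, and all at 20°C. The methods of the study give somewhat different levels, and none of them enters a calculation. HypOA parents were wild-caught adults held under HypOA at night and control water by day before spawning, whereas HypOA offspring were held under constant HypOA from shortly after fertilization.

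The response of larvae from control parents was a, the mean log2 CPM in CH minus that in CC. The response of larvae from HypOA parents was b, the mean in HH minus that in HC. CPM is the number of reads of a transcript per 1000000 counted reads of a larva, with library sizes adjusted by TMM factors, and a prior count of 2 was added before the logarithm. Of 20210 transcripts, 16527 had a mean CPM of at least 1, and in 6400 of them (38.7%) a and b had opposite signs. The 150 of these with the largest value of the smaller response, in absolute terms, are the members described here. In 59 members a was above 0 and b below 0, so that the level was higher under HypOA rearing in offspring of control parents and lower in offspring of HypOA parents. In the other 91 members a was below 0 and b above 0. The members were chosen by a and b, so both are given below as descriptions. Where counts of members past a test of these contrasts are printed, they stand beside the background and support nothing.

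As background, a plot of the level of a trait against the environment is called a reaction norm, and reaction norms that cross are the plainest form of an interaction between parental and offspring environments. Parents can shape such responses in fish through egg contents, among them hormones and maternal mRNA, and through marks on the chromatin of eggs and sperm. Hypoxia in fish is known to alter oxygen transport, energy metabolism and growth, and raised CO2 to alter acid-base regulation.

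Several facts limit what a group stands for. Each parental treatment was a pool of parents, so a difference between parental treatments and one between parental pools cannot be told apart. The paper lists the mothers of the HypOA pool as shorter and lighter on average than those of the control pool, and the fathers as slightly longer and heavier. Larvae of a group shared rearing containers, the labels do not say which larvae did, and p-values measure only the spread between these larvae. In whole larvae, a lower share of a tissue and less RNA per cell of it cannot be told apart. The paper reports that larvae reared under HypOA were shorter at sampling and slightly behind in development. It also reports slower average growth after hatching in offspring of HypOA parents. A difference in stage and a response to treatment therefore cannot be told apart. Counted reads per larva ranged from 11688851 to 16120500. Larva CC 1 stood apart in several marker sums: its transcripts of digestive enzymes summed to 1584 CPM against a median of 117 CPM in CC, those of extracellular matrix to 14421 CPM against 9330 CPM, and those of immune genes to 848 CPM against 581 CPM. The marker lists hold only transcripts that the study had called between CH and CC in these same larvae. Such sums, here and below, are therefore no independent measure of tissue content.

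The members were spread over a narrow range of responses. Among the 59 with a above 0, the median of a was 0.59 and that of b was −0.50 on the log2 scale. Among the 91 with a below 0, the medians were −0.59 and 0.49. Over all 16527 transcripts the median of the absolute response was 0.215 for a and 0.133 for b. The smaller absolute response of a member ran from 0.37 to 1.20, with a median of 0.44. As many as 770 transcripts had responses of the same sign that both reached the limit of 0.37, of which 278 were higher and 492 lower under HypOA rearing in both parentages.

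**Figure D1:**
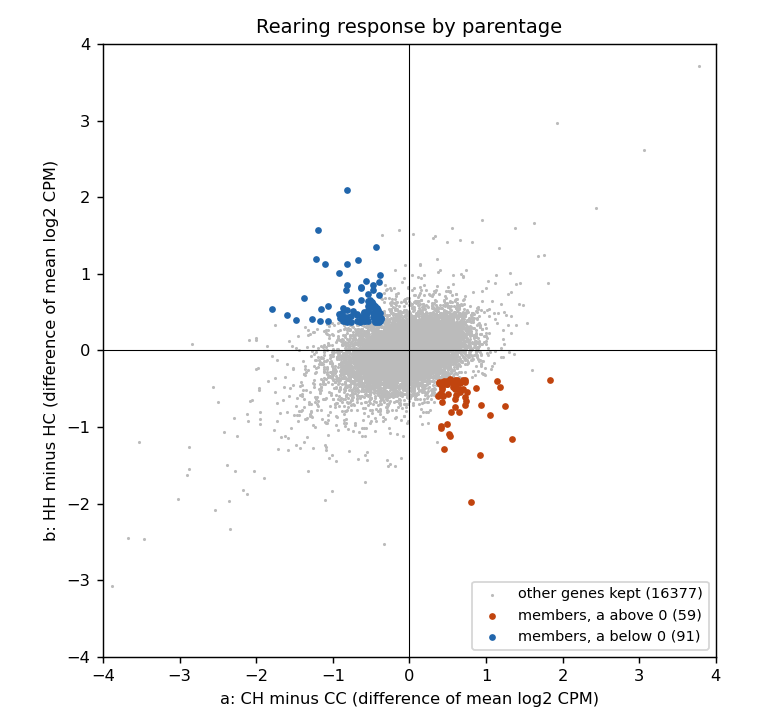
Response a (CH minus CC, x axis) against response b (HH minus HC, y axis), both as differences of mean log2 CPM, for 16527 transcripts; colored points are the 150 members. The 59 members with a above 0 lie in the lower right and the 91 with a below 0 in the upper left, each at least 0.37 from both axes, as the rule sets.

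Reading the groups side by side shows how the 4 means lay to each other. In 142 of the 150 members HC differed from CC in the same direction as CH did, and in 141 HH differed from CH in the direction opposite to a. Both counts follow in large part from the choice of members, since the 4 differences are built from the same 4 means. Among members with a above 0 the most frequent order from low to high was HH, CC, HC, CH, found in 24 of 59, followed by CC, HH, CH, HC in 16. Among members with a below 0 the order CH, HC, CC, HH was found in 33 of 91 and the order HC, CH, HH, CC in 28. Opposite slopes do not by themselves make the lines of the parentages cross. They did not cross in the orders CC, CH, HH, HC (3 of 59) and HH, HC, CC, CH (2 of 59). Transcripts mme00593 and mme20098 had the order CC, CH, HH, HC. Nor did the lines cross in the orders CH, CC, HC, HH and HC, HH, CH, CC, each found in 6 of 91. In the medians over members, CC and HH lay on one side and CH and HC on the other.

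**Figure D2:**
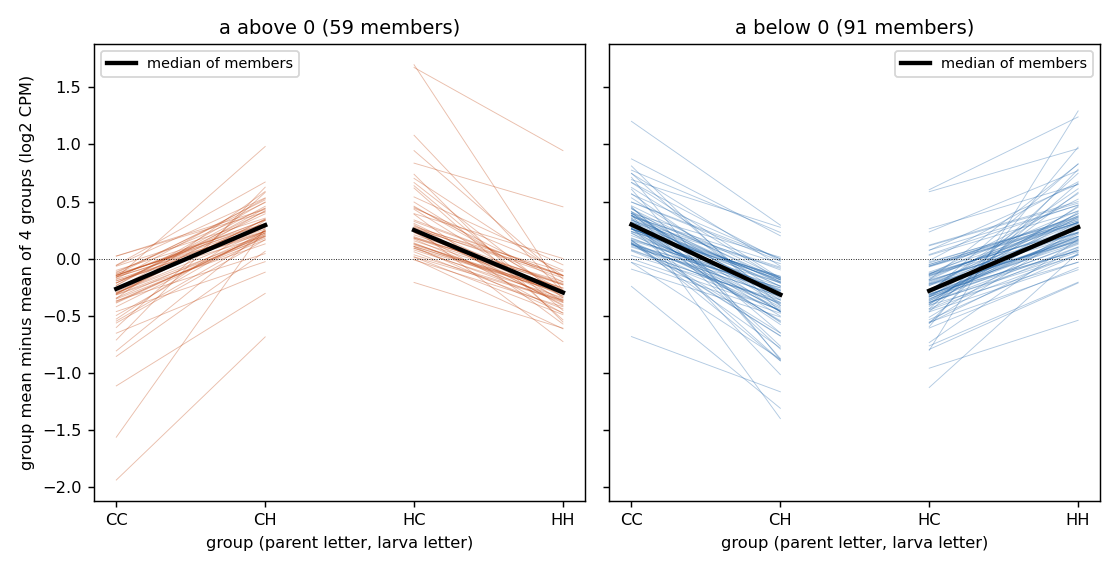
Group mean minus the mean of the 4 groups, in log2 CPM, for each member (thin lines), with the median over members (thick lines), for the 59 members with a above 0 and the 91 with a below 0. Lines join the rearing treatments within a parentage, and the slopes have opposite signs in every member because the rule requires it.

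The 6 leading members with a above 0 were mme07821, mme12990, mme11784, mme00593, mme20098 and mme11262. They are given by the identifiers of the count files. Transcript mme07821 was at 0.0843 to 22.3 CPM in CC larvae (median 10.4) and 9.98 to 24.9 CPM in CH larvae (median 18.02), against 9.18 to 32.4 CPM in HC larvae (median 18.7) and 0 to 29.2 CPM in HH larvae (median 18.6). Its response a was 1.34 and its response b was −1.15, while the group medians of CH, HC and HH were close to each other. The edgeR fit gave 0.59 (standard error, SE, 0.62) and −0.27 (SE 0.61), both smaller than their standard errors. Larva CC 5, with 0.0843 CPM, and larva HH 3, with 0 reads, lay apart from the other 22 larvae, which held 6.58 to 32.4 CPM. Transcript mme11784 was low in the same larvae, with 0 reads in CC 5 and HH 3 and 0.856 to 4.97 CPM in the other 22. Its a was 1.06 and its b −0.85, and in the fit 0.73 (SE 0.54) and −0.44 (SE 0.51). A count of 0 allows up to 3 reads, which is 0.175 to 0.277 CPM depending on the larva, and covers counting error only. Without CC 5, a was 0.37 in mme07821 and 0.47 in mme11784, and without HH 3, b was −0.02 in mme07821 and −0.13 in mme11784.

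Transcript mme12990 was widely spread in each group. It was at 0 to 2.99 CPM in CC (median 0.507), 0.370 to 3.97 in CH (median 0.847), 0.451 to 5.51 in HC (median 3.14) and 0.0668 to 4.94 in HH (median 1.29). All 4 groups overlapped, and a was 0.92 and b −1.37. The fitted values were 0.61 (SE 0.83) and −0.81 (SE 0.77). Transcript mme11262 lay between 0.169 and 1.58 CPM in CC (median 0.547), 0.739 and 2.22 in CH (median 1.56), 0.248 and 2.41 in HC (median 1.24) and 0.185 and 1.45 in HH (median 0.477). Here the medians themselves crossed, with CH and HC above CC and HH, and the groups again overlapped. Its a was 0.94 and its b −0.71, with fitted values of 0.91 (SE 0.50) and −0.83 (SE 0.51). Its mean of 1.04 CPM lay just over the limit of 1 CPM, and it fell under that limit without CH 3 or without HC 5.

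Transcript mme00593 was nearly an on or off signal. It lay between 0.788 and 2.72 CPM in CC (median 1.74), 1.33 and 5.50 in CH (median 2.87), 0.414 and 47.6 in HC (median 38.6) and 0.987 and 43.4 in HH (median 2.00). Larvae HC 1, HC 3, HC 4, HC 6 and HH 6 held 37.8 to 47.6 CPM and the other 19 larvae 0.414 to 5.50 CPM. All 5 high larvae had HypOA parents, with 4 in HC and 1 in HH. Its a was 0.81 and its b −1.98, and in the fit 0.92 (SE 0.99) and −1.72 (SE 0.83). Transcript mme20098 had 0 reads in 11 larvae and was at 0.0873 CPM in another, and it was at 1.13 to 18.6 CPM in the remaining 12, namely 1 CC larva, 2 CH larvae, 5 HC larvae and 4 HH larvae. Between CC and CH its response came mainly from larva CH 1 at 18.6 CPM, since a was 1.25 with that larva and 0.24 without it. Its b was −0.73, and −0.03 without HH 3 or without HH 6, which both had 0 reads. Leaving out HC 1 gave a b of −0.29, and leaving out HC 6 gave −1.45. In the fit over all larvae a was 3.24 (SE 1.41) and b −0.30 (SE 1.12).

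The leading members with a below 0 included 5 that were high in the same larvae. Transcript mme01426, first of the 150 by the rule, was at 16.7 to 338 CPM in CC larvae (median 40.9) and 10.5 to 85.9 CPM in CH larvae (median 25.03), against 6.81 to 117 CPM in HC larvae (median 30.3) and 23.1 to 569 CPM in HH larvae (median 92.7). Its a was −1.20 and its b 1.57, and the edgeR fit gave −1.69 (SE 0.78) and 1.90 (SE 0.78). Larva CC 1 was highest in CC, CH 6 in CH and HH 3 in HH. The same larvae were highest in their groups for mme06214, mme14068, mme15921 and mme14662. Larva CC 1 held 14.1 CPM of mme06214 against a median of 2.11 in the other CC larvae, and HH 3 held 12.9 CPM against 2.77 in the other HH larvae. For mme14068 the values were 13.5 against 2.47 CPM and 18.8 against 2.28 CPM. For mme15921 they were 11.03 against 0.356 CPM and 9.02 against 0.917 CPM.

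The most abundant of these after mme01426 was mme14662, at 57.5 CPM in CC 1 against 23.5 in the other CC larvae and at 180 CPM in HH 3 against 23.2 in the other HH larvae. The second highest larvae were also shared, as CC 2 and HH 5 followed CC 1 and HH 3 in mme01426, mme06214, mme14068 and mme15921. In mme14662 they were CC 5 and HH 2. Without CC 1 and HH 3, an omission chosen after the values had been seen, mme01426 had responses of −0.71 and 1.04, mme06214 of −0.82 and 0.88, mme14068 of −0.67 and 0.65 and mme14662 of −0.59 and 0.71. These 4 stayed among the 150 without those larvae, while mme15921 left, with responses of −0.25 and 0.54. CC 1 is also the larva with high digestive, extracellular matrix and immune sums, whereas HH 3 ranked 4, 4 and 2 of 6 in HH for those sums. HH 3 was highest in HH for muscle sarcomere transcripts, at 6103 CPM against a median of 4308 CPM, and for globin and heme synthesis transcripts, at 184 CPM against 126 CPM, while CC 1 was lowest in CC for sarcomere and for retina and eye transcripts. The part of tissue composition in these members was not tested.

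The shared high larvae went beyond the leading members. In 10 of the 91 members with a below 0 (10.99%), CC 1 was highest in CC and HH 3 highest in HH, against 2 of the 59 with a above 0 and 3.77% of the 16527 transcripts. The count is no test, because high values in those larvae move a and b in the direction by which the 91 were chosen. The other 5 of the 10 were mme10108, mme05300, mme04103, mme08920 and mme12608. Among them mme12608 was at 39.4 CPM in HH 3 against a median of 10.6 CPM in the other HH larvae, and mme08920 at 66.5 against 37.7 CPM.

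Transcript mme11819 showed the widest spread of all 150, with a within-group standard deviation (SD) of 3.14 on the log2 scale. It was at 415 CPM in CC 5, 361 in CH 6, 351 in HC 6, 340 in HH 6, 318 in HH 3 and 82.3 in CC 2, and at 1.46 to 4.87 CPM in the other 18 larvae. High larvae occurred in every group, with 2 each from CC and HH and 1 each from CH and HC. Its responses of −0.81 and 0.85 therefore reflect 1 more high larva in CC than in CH and 1 more in HH than in HC. Without CC 5, a was 0.24 and no longer of the opposite sign to b, and b was −0.06 without HH 3 and −0.07 without HH 6.

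**Figure D3:**
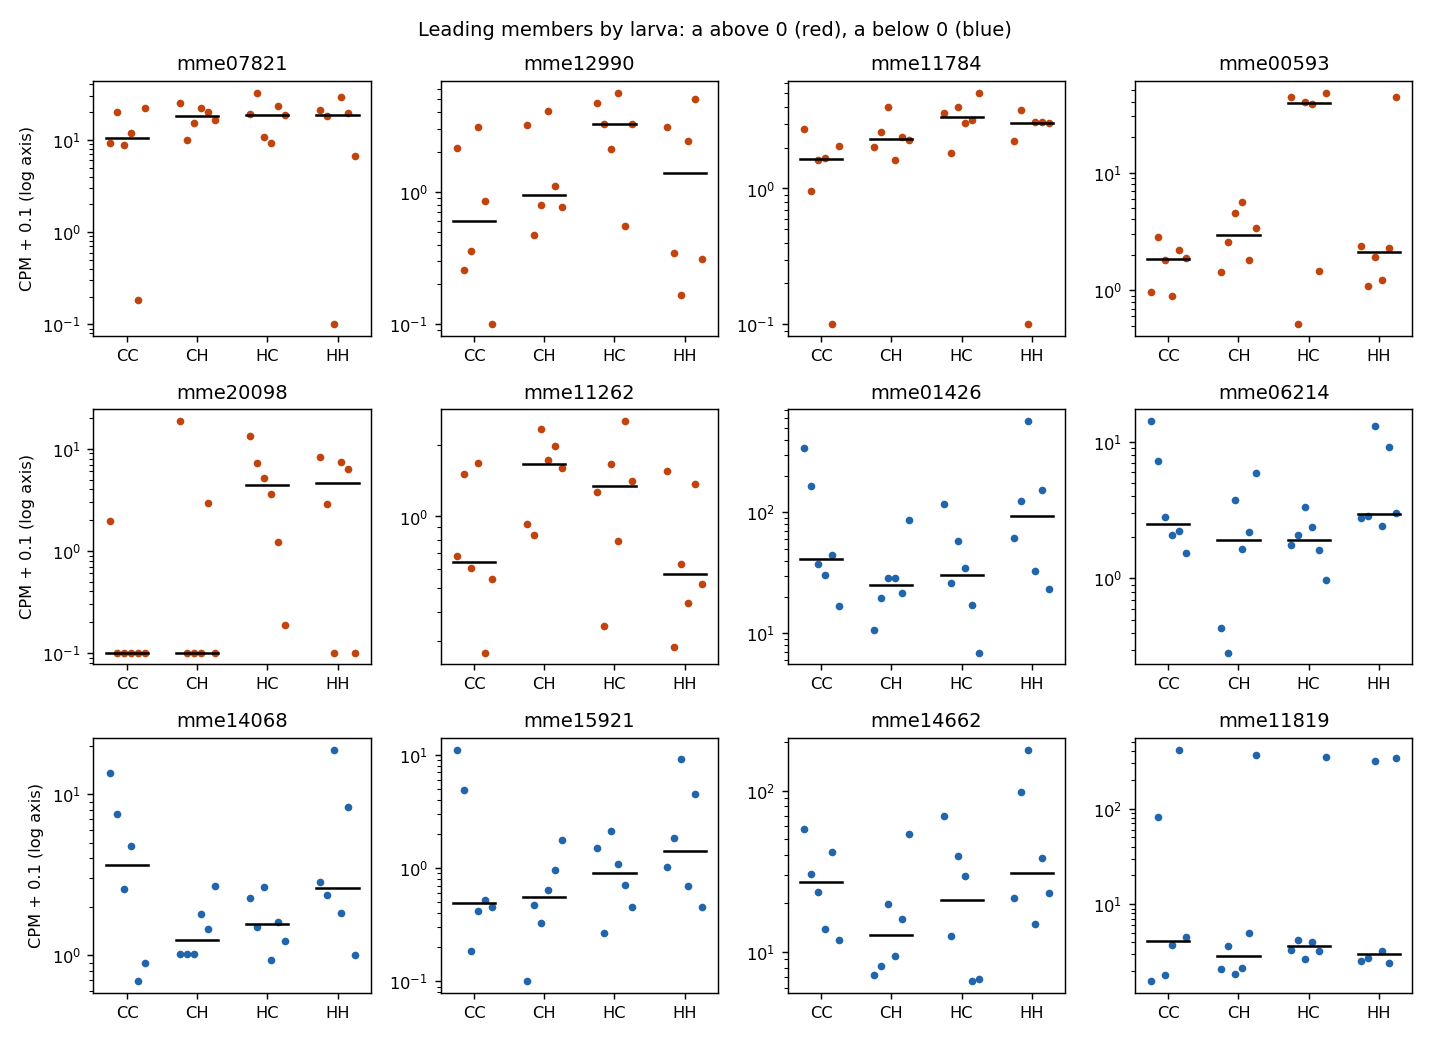
CPM + 0.1 on a log axis for each of the 6 larvae of each group (points) with the group median (bars), for the 6 leading members with a above 0 (red) and the 6 with a below 0 (blue). Larvae CC 5 and HH 3 lie at the bottom in mme07821 and mme11784, CC 1 and HH 3 at the top in mme01426, mme06214, mme14068, mme15921 and mme14662, and 6 larvae stand far above the rest in mme11819.

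In 3 members all larvae of a pair of groups were separated in 1 of the responses. Transcript mme14514 was at 0.817 to 8.01 CPM in CC (median 3.59), 0.462 to 6.58 in CH (median 1.66), 0.698 to 2.32 in HC (median 1.46) and 2.81 to 13.6 in HH (median 7.44). Every HH larva was above every HC larva, while CC and CH overlapped, and a was −0.81 and b 2.09. Transcript mme11113 was higher in every CH larva (1.65 to 3.88 CPM) than in every CC larva (0.394 to 1.46 CPM), and overlapped between HC (0.579 to 6.11 CPM) and HH (0.735 to 3.57 CPM). Its CH and CC larvae overlapped in reads before scaling to library size, with 25 in CC 1 against 20 in CH 1 and 23 in CH 5. Transcript mme15711 was lower in every CH larva (0.417 to 1.08 CPM) than in every CC larva (1.4005 to 2.74 CPM), and overlapped between HC (0.301 to 1.83 CPM) and HH (0.688 to 1.62 CPM). Its lowest CC larva in reads, CC 6, had 16, and its highest CH larva, CH 5, had 14. Whether the separation of CH from CC in mme11113 and mme15711 exceeds counting error was not tested. These 3 were singled out after their values had been seen. They are the only members without overlap in a response, 2 between CH and CC, where 2.95% of the 16527 transcripts did not overlap, and 1 between HH and HC, where 0.974% did not. In 0 members did both responses separate all larvae, against 0.151% of all transcripts.

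Of the 3 members at 50 CPM or above, mme01426 and mme11819 were among the most variable and mme08084 among the least. Transcript mme08084, the most abundant, was at 66.6 to 137 CPM in CC (median 102), 59.3 to 111 in CH (median 76.3), 73.5 to 105 in HC (median 85.8) and 87.8 to 136 in HH (median 117). Its responses were −0.38 and 0.41, and in the fit −0.38 (SE 0.16) and 0.42 (SE 0.16). Its within-group SD of 0.29 was below the median of all transcripts, which few members were. Transcript mme13157 was at 21.6 to 62.3 CPM in CC (median 45.3), 35.2 to 81.4 in CH (median 63.7), 26.9 to 80.8 in HC (median 49.2) and 24.8 to 48.6 in HH (median 37.0), with responses of 0.61 and −0.44. Transcript mme20113 had a median of 6.23 CPM in CC against 39.2 in CH, 49.5 in HC and 53.0 in HH. Its a was 1.83, the largest among the 59, but its b of −0.38 turned to 0.18 without CC 1 and HH 3, HH 3 being the lowest HH larva at 4.94 CPM. In the fit over all larvae its a was 1.38 (SE 0.62) and its b −0.06 (SE 0.60).

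A gene symbol could be read for only 2 members. Symbols were taken from the 1299 readable rows of the study's differential expression results, which span all its comparisons. Those rows hold only transcripts called between CH and CC, so that a of any annotated member is not independent evidence. The other 148 members are given by identifier alone, as no symbol was found for them in those rows. The paper reports symbols for most of its transcripts, so these members need not lack an annotation. LPAR1 (mme11224), a G protein-coupled receptor for lysophosphatidic acid, a signaling lipid, was at 0.337 to 2.88 CPM in CC (median 1.70), 0.2502 to 0.541 in CH (median 0.371), 0.166 to 1.48 in HC (median 0.800) and 0.910 to 1.23 in HH (median 1.10). The 6 CH larvae lay close together and below 5 of the 6 CC larvae, and the HC range enclosed that of HH. With a mean of 1.01 CPM it lay just over the limit of 1 CPM, with group means of 1.70 CPM for CC, 0.388 for CH, 0.862 for HC and 1.08 for HH. It left the set at 10 of the 24 omissions, at 9 of them with a mean under 1 CPM. Its a was −1.60 and its b 0.47, with fitted values of −2.12 (SE 0.42) and 0.33 (SE 0.39). The second response was thus smaller than its standard error in the fit.

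CL18A (mme00364), a C-type lectin domain protein of family 18 that binds polysaccharides, was at 13.1 CPM in CC 1 and 9.92 CPM in CC 4 and at 0.358 to 1.48 CPM in the other 22 larvae. Its medians were 0.880 CPM for CC, 0.584 for CH, 0.530 for HC and 0.858 for HH. Its a of −1.28 rested on those CC larvae. It was −0.70 without CC 1 and −0.78 without CC 4, but each of these omissions leaves the other high larva in. Larvae CC 2, CC 3, CC 5 and CC 6 held 0.389 to 1.33 CPM, close to the 0.358 to 1.02 CPM of the CH larvae. Its b was 0.41, or 0.48 (SE 0.72) in the fit.

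The limit of the set cut through a continuum. The last members inside were mme15752, with responses of 0.37 and −0.60, and mme07595, with −0.77 and 0.37. The first transcripts outside were mme07814, with −0.44 and 0.37, and mme20114, with 0.73 and −0.37. In each of the 4 the groups overlapped. Transcript mme20114 carries the identifier next to that of mme20113, and CH 6 was lowest in CH and HH 3 lowest in HH in both. Of the 150 members, 8 had an identifier next to that of another member.

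The members also shared a low and variable level. Noisy transcripts, low-count ones among them, have larger differences of means, so a rule on size selects for this. The values are a description. The median of the mean CPM was 2.30 in the members and 14.3 in the 16527 transcripts, or 29.8 against 187 reads per larva. Between 1 and 2 CPM lay 65 members (43.3%) but only 7.82% of all transcripts. Another 46 members lay between 2 and 5 CPM, 19 between 5 and 10, 17 between 10 and 50, and 3 at 50 or above. The share of transcripts that were members was lower in each higher class, from 5.03% between 1 and 2 CPM to 0.114% at 50 CPM or above. At least 1 larva had 0 reads in 13 members.

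The SD between larvae within groups had a median of 0.68 on the log2 scale in the members and 0.31 in all transcripts, and 147 of 150 members (98%) were above the latter. The rule did not use the SD itself, but noisy transcripts have larger differences of means, so the SD is a description of what a rule on size selects. In the fit the standard errors of both responses had a median of 0.39, close to the median smaller response of 0.44. A gap of at least 2 log2 units with at least 2 larvae on each side, a feature looked for after values had been seen, occurred in 6 members (4%) and in 0.103% of all transcripts. The 6 were mme07821, mme11784, mme11819, mme00593, mme20098 and CL18A. Such gaps also enlarge differences of means, so their count is likewise a description of what the rule selects.

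**Figure D4:**
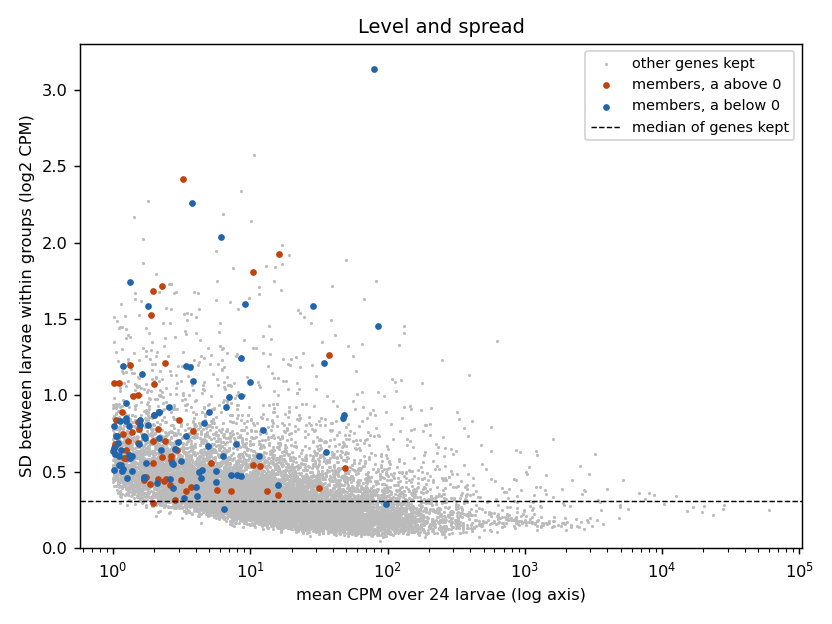
Mean CPM over 24 larvae (x axis, log scale) against the SD between larvae within groups in log2 CPM (y axis), for the 150 members (colored) and the other transcripts (gray); the dashed line is the median of all 16527, at 0.31. All but 3 members lie above the line, and 65 lie between 1 and 2 CPM.

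The parental main effect is the mean of HC and HH minus the mean of CC and CH. It is the one contrast of group means orthogonal to a and b. It is free of the choice of members only where the groups vary alike, which was not so in mme00593, described below. In edgeR's quasi-likelihood test with Benjamini-Hochberg adjustment over 17262 transcripts, 1 of the 150 members passed an adjusted p of 0.05 (0.667%), against 112 of all transcripts, a background of 0.649%. At an unadjusted p of 0.05 there were 20 members (13.3%) against a background of 17.4%. The called share lay at the background and is not a result about the members. In the direction of the estimate, 71 members were higher and 79 lower in offspring of HypOA parents. Its median was −0.06 in the 59 members and 0.05 in the 91, against −0.01 in all transcripts.

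The called member was mme00593, the on or off transcript, higher in offspring of HypOA parents by 2.79 on the log2 scale (SE 0.65, adjusted p = 0.0455, edgeR). Of 12 offspring of HypOA parents 5 were high, and 0 of 12 offspring of control parents. The SD between its larvae on the log2 scale was 2.88 in HC and 1.95 in HH, against 0.64 in CC and 0.74 in CH. The high HC larvae enter both b, by which it was chosen, and the parental estimate. The adjusted p is therefore not free of that choice. Without larva HH 6 the estimate was 1.60 with an adjusted p of 0.143, with the replicate number as a block it was 2.00 with 0.148, and in limma-voom it was 1.43 with 0.457. Leaving out other single larvae moved the adjusted p between 0.0292 and 0.0867, and it stayed under 0.05 at 4 of the 24 omissions.

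For the comparisons that the rule did use, the counts are given with their backgrounds and nothing is read from them. Between CH and CC 4 members passed an adjusted p of 0.05 in the edgeR test, namely LPAR1, CL18A, mme05300 and mme16560, where the background was 9.25%. Between HH and HC 0 members passed against a background of 0.0232%, with 29 members at an unadjusted p under 0.05 against 8.24% of all transcripts. For HC against CC and HH against CH the count was also 0, with backgrounds of 0% and 0.0174%. For the interaction, the difference between b and a, 0 members and 0 of all 17262 transcripts passed. At an unadjusted p under 0.05 the interaction counted 91 members, chosen for this difference, and 1845 of all transcripts, a background of 10.7%. The lowest adjusted p of a member was 0.342.

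Of the 4 members counted for CH against CC, mme16560 was at 0.843 to 1.78 CPM in CC (median 1.21), 0.918 to 4.30 in CH (median 2.32), 1.43 to 2.79 in HC (median 1.93) and 0.735 to 1.83 in HH (median 1.15). Transcript mme05300 had medians of 1.86 CPM for CC, 0.662 for CH, 0.781 for HC and 1.46 for HH. In both the group medians crossed, with HC on the side of CH and HH on the side of CC, and the larvae overlapped in each response.

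Membership depended on single larvae. With each of the 24 larvae left out in turn and the rule applied again, 105 to 130 of the 150 members were chosen again (median 118). The fewest were kept without HH 6 and the most without CC 5. At each omission at least 145 members kept opposite signs and a mean CPM of at least 1, and 133 did so at all 24. A member that fell under 1 CPM was thus counted together with those that lost opposite signs. Only 20 members were among the 150 at all 24 omissions, 8 with a above 0 and 12 with a below 0, and 10 of them were among the first 20 by the rule. Of the 20, 5 were also chosen under all 8 other settings tried, namely mme01426, mme14662, mme00593, mme02045 and mme16379. Those settings include a mean CPM of at least 5, which no member below that level can pass. The 5 were therefore set apart by level at least in part. Transcripts mme02045 and mme16379 had modest spread. Transcript mme02045 had mean log2 CPM of 2.20 for CC, 2.80 for CH, 2.80 for HC and 2.17 for HH, with a within-group SD of 0.38. Transcript mme16379 had 2.52, 3.17, 3.08 and 2.53 in the same order, with an SD of 0.37.

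**Figure D5:**
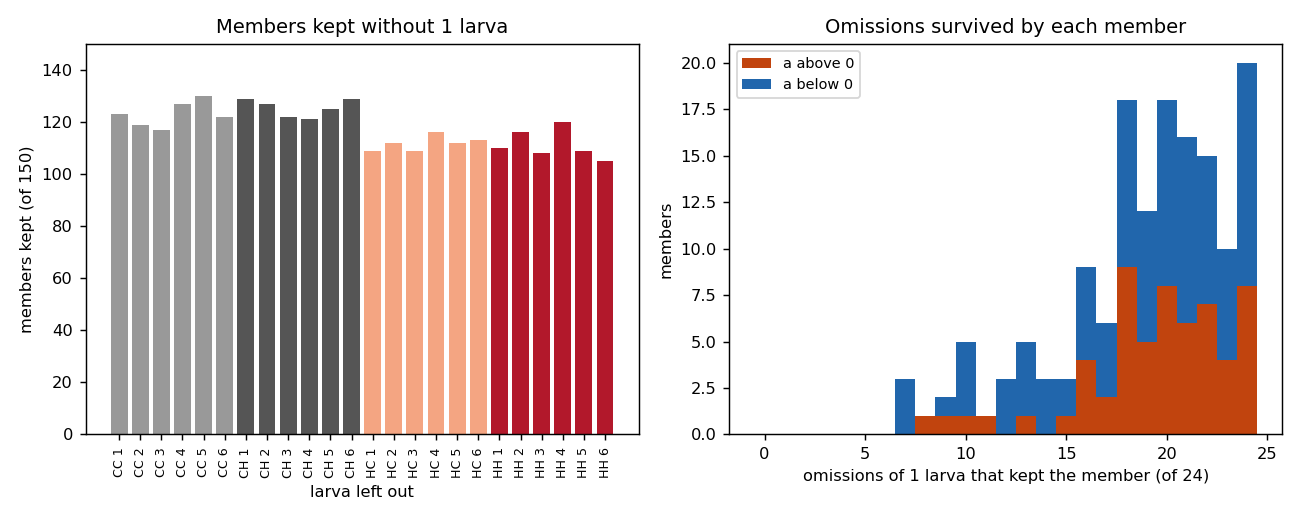
Left, how many of the 150 members the rule chose again when 1 larva was left out (bars, one per larva, shaded by group); right, for how many of the 24 omissions each member was chosen again (stacked counts of members). The bars lie between 105 and 130, and 20 members were chosen again at every omission.

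Among transcripts with a symbol in the readable rows opposite responses were less common than in the whole set. Of 1199 with a symbol and a mean CPM of at least 1, 179 (14.9%) had opposite signs, 85 with a above 0 and 94 with a below 0, against 38.7% of all transcripts. Those with a symbol had been called between CH and CC, and so had large a. The lists that follow were drawn from them, so each count follows in part from that choice. In lists of genes by function, opposite signs were found in 0 of 8 globin and heme synthesis transcripts, 0 of 9 of iron-sulfur, respiratory chain and antioxidant genes, 1 of 14 of digestive enzymes, 4 of 27 of the muscle sarcomere and 4 of 52 of extracellular matrix. They were found in 4 of 53 of synapse and ion channels, 3 of 14 of retina and eye, 4 of 26 of carbohydrate and lipid metabolism and 6 of 29 immune transcripts. CL18A was the only member in any of the 9 lists, which only the 2 members with a symbol could enter. Transcripts of globins, which bind oxygen through heme, and of heme synthesis had median responses of 1.48 in a and 1.39 in b, so that their median was higher under HypOA rearing in both parentages.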

How the data were processed

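The authors sequenced 24 larvae (paired-end, NEBNext directional libraries), aligned reads to a silverside genome with STAR 2.6.1d and deposited raw read counts per transcript entry from HTSeq 0.11.1. The paper names Fastp and the submitters' notes Trimmomatic for trimming. The paper cites a published silverside assembly. Its build name and the strand and overlap settings of the counting step: not given in the sources used here. Groups came from the labels.

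The 20651 entries were summed to 20210 identifiers. Reads assigned to no entry (26.7% on average) were left out, among them reads placed at several sites (5.32%), so entries with near-identical copies are uncertain, and which members have such copies was not tested. TMM factors were 0.858 to 1.18. All pairs of larvae of a group differed by more than counting error (lowest chi-square over its degrees of freedom, 12.6). The rule and its limits (mean CPM of 1, prior count 2, 150 members) are those in the report. Tests used edgeR 4.0.16 (glmQLFit in legacy form, filterByExpr, all 24 larvae, 1 coefficient per group) in R 4.3.3, with an adjusted p of 0.05 over 17262 transcripts. The standard error is the log2 fold change divided by the square root of F. limma 3.58.1 and DESeq2 1.42.0 gave alternatives. Scripts were tested on simulated data.

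Named were the 6 leading and 2 most abundant members in each direction, members with a symbol or called for the parental main effect, and those next to the limit. Other names were chosen after values were seen. Members and lists were chosen with earlier results of these data known. The RefSeq annotation at hand shares no identifier with the counts, so no coordinates or sequences are given.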

Additional observations from a re-analysis of the deposited data

Results flagged for a closer look

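For 22 named members, each group of 6 larvae was checked for a larva far from the rest, by the gap to its neighbor on the log2 scale relative to the range of the group. Of 88 groups 10 held such a larva, where chance flags about 1 in 20 groups. No excess can be read from this, because the members were selected on group means that such larvae move, and some were named for a gap between larvae. Low larvae were CC 5 at 0.0843 CPM and HH 3 at 0 CPM in mme07821, the same larvae at 0 and 0 CPM in mme11784, HH 5 at 0.777 CPM in mme07595 and CC 4 at 0.394 CPM in mme11113. High larvae were HH 6 at 43.4 CPM in mme00593, CC 1 at 1.87 CPM in mme20098, and CH 6 at 361 CPM and HC 6 at 351 CPM in mme11819.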

How the results depend on the processing

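Of the 150 members, 131 to 134 were chosen again with a prior count of 5 or 0.25, 149 with RLE size factors or entries not summed, 112 with filterByExpr and 101 from edgeR's fitted values. With a mean CPM of at least 5 the number was 39. That number was fixed by level, as the setting only removes transcripts below its limit and keeps every member above it. With group medians the number was 66 and without CC 1 and HH 3 together, tried after seeing the data, 89. Single omissions kept 105 to 130. For the parental main effect the count of transcripts was 478 with DESeq2 and 5 (without HH 6) to 276 (without CC 1) over single omissions. The count of members was 3 with DESeq2, 2 with the newer quasi-likelihood form, 2 without CC 1 and HH 3, and 0 to 2 over single omissions. The member called by limma-voom was mme18287, not mme00593. Between CH and CC the members called were 9 with DESeq2, 2 with limma-voom and 1 to 10 over single omissions. Between HH and HC they were 1 with DESeq2 (mme14514) and 0 to 1 over single omissions (mme00593, without HH 6). For the interaction the count was 0 with DESeq2, with limma-voom, with the replicate block and at every single omission. The other settings did not count it. With the replicate number as a block, 39 transcripts and 0 members were called for the parental main effect, and 1 member (LPAR1) between CH and CC. Same-numbered larvae did not vary together (median correlation of deviations −0.02 over 36 pairs, own number best in 7 of 72), so the numbers were not taken to pair larvae. The median level of 2.30 CPM, about 29.8 reads, limits precision.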

Other observations

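Among the annotated transcripts near to the set but outside its limit, opposite responses were found in which b was small. HDAC7, a histone deacetylase, had an a of −0.61 and a b of 0.33, with a fitted b of 0.36 (SE 0.19). TITIN, the giant elastic protein of the sarcomere, had −0.80 and 0.29, with a fitted b of 0.27 (SE 0.23). DGAT1, which makes triacylglycerol, had 0.94 and −0.29, with a fitted b of −0.38 (SE 0.27). Their a is not independent evidence, as symbols came from transcripts called between CH and CC, and no test of b is given for them because they were ranked by a and b.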
